A study of Homo sapiens with 6 samples.

Results

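The genes described here carry the unfolded protein response and the integrated stress response, which cells use when proteins misfold in the endoplasmic reticulum (ER) or amino acids run short. They are 34 genes chosen by name, and all 34 were found by identifier among the 57820 Ensembl identifiers of the deposited count table. By role they comprise 14 ER chaperones and folding enzymes, 4 genes of ER-associated degradation (ERAD), 4 stress sensors and factors, 9 factors and feedback genes of the integrated stress response and 3 enzymes of amino-acid synthesis. All 34 passed the filter on low counts.

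RNA came from Cal27, a human epithelial cell line derived from a tongue squamous carcinoma, as total RNA of 3 groups with 2 biological replicates each. The CRNN cells were transduced with a lentivirus that carried an overexpression construct for CRNN (cornulin), a protein of differentiating squamous epithelium. The GFP cells received the lentivirus with a GFP control vector, and the untreated cells served as a further control. Both transduced groups were exposed to polybrene at 8 µg/ml and harvested after 48 h, so CRNN and GFP cells differ by the insert, and CRNN and untreated cells by the virus as well. Polybrene and a culture time are not given for the untreated cells, so whether these also differ is unknown. Neither vector has a row of its own among the Ensembl identifiers, and CRNN reads from the construct and from the gene are not separated.

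When unfolded proteins accumulate in the ER, the sensors ERN1 (IRE1), ATF6 and EIF2AK3 (PERK) are activated at its membrane. ERN1 splices the XBP1 mRNA, ATF6 is cut to release a transcription factor, and both raise the chaperone and ERAD genes. EIF2AK3 and the other eIF2 kinases phosphorylate eIF2, which slows translation in general while the ATF4 mRNA is translated more. ATF4 then raises genes of amino-acid uptake and synthesis and feedback genes such as TRIB3 and PPP1R15A. Counts per gene record neither XBP1 splicing nor eIF2 phosphorylation nor ATF4 protein, so the values below concern mRNA levels only.

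The promoters of these genes hold short motifs that are known for each arm, and 8 stretches are shown as examples of the motifs of the ER arms and of ATF4. The comparisons below use the roles of the genes, not these motifs, except where chaperones with and without an ERSE match are set beside each other. They were read from RefSeq (GRCh38.p14), along each gene's strand, within the 250 bases before the gene's start, for the 33 members with an entry. Capitals mark the motif and small letters the 8 bases on each side.
HSPA5, ERSE, chr9:125241383-125241417, minus strand: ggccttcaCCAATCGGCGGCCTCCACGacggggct
CALR, ERSE, chr19:12938376-12938410, plus strand: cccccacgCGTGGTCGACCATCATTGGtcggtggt
CANX, ERSE, chr5:179698770-179698804, plus strand: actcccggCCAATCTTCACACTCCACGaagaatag
XBP1, ERSE, chr22:28800595-28800629, minus strand: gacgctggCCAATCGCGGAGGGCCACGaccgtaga
HERPUD1, ERSE-II, chr16:56932017-56932043, plus strand: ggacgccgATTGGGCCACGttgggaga
HERPUD1, CARE, chr16:56931958-56931981, plus strand: gcggcgggTTGCATCAgcccgtgc
CHAC1, CARE, chr15:40953254-40953277, plus strand: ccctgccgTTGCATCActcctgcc
ASNS, CARE, chr7:97872461-97872484, minus strand: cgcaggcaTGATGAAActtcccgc

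The motif named ERSE (ER stress response element) was searched as CCAAT, then any 9 bases, then CCACG, ERSE-II as ATTGG, then any base, then CCACG, UPRE (unfolded protein response element) as TGACGTGG and CARE (the composite C/EBP and ATF element bound by ATF4) as TGATGNAA, each on both strands. ERSE stood before 7 members, namely HSPA5, HSP90B1 with 2 matches, CALR, CANX, PDIA6, CRELD2 and XBP1, and before 25 of the 27305 genes with a promoter entry (0.0916%). ERSE-II stood before SDF2L1, HERPUD1 and, with 2 matches, HYOU1, and before 18 genes in all (0.0659%). UPRE stood before HYOU1, where it overlapped the ERSE-II match farther from the start, and before 213 genes in all (0.78%). CARE stood before HERPUD1, CHAC1 and ASNS, thus before 2 of the 12 ATF4 and amino-acid genes and 1 ERAD gene, and before 1061 genes in all (3.89%). HERPUD1 thus carried both an ERSE-II and a CARE match. ERSE was first described in chaperone promoters such as that of HSPA5, so its presence there restates how the motif was found, and a match is not evidence of binding in these cells.

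Library totals ran from 11817105 counts in GFP replicate 2 to 28041227 in untreated replicate 1, and 3 counts corresponded to 0.115 to 0.239 CPM, the reads of a gene relative to the TMM-adjusted library total. CRNN itself was counted 21256 and 23062 times in the CRNN libraries, 59 and 32 times in the GFP libraries and 92 and 52 times in the untreated ones, which matches the CRNN label and does not tell GFP from untreated libraries. The epithelial markers summed to 4080 to 6200 CPM, while 4 of the 5 markers of secretory plasma cells, in which these pathways are very active, stayed under 1 CPM in every library and TNFRSF17 was at 0 in all 6. In edgeR's quasi-likelihood test across 16396 genes, with Benjamini-Hochberg adjustment and a threshold of 0.05, the share of all genes called was 0.0183% for CRNN against GFP, 0.0061% for CRNN against untreated and 0% for GFP against untreated. None of the 34 members was called in any of the 3 comparisons. Their smallest adjusted p was 0.999 for CRNN against GFP, 0.989 for CRNN against untreated and 0.711 for GFP against untreated. Below the adjustment, at an unadjusted p under 0.05, edgeR found 0, 4 and 2 members in these comparisons, against 4.39%, 4.48% and 6.93% of all genes. Split by direction, 0 members were higher and 0 lower for CRNN against GFP (1.49% and 2.9% of all genes), 1 was higher and 3 were lower for CRNN against untreated (1.52% and 2.96%), and 1 was higher and 1 lower for GFP against untreated (4.03% and 2.9%). DESeq2 and limma-voom called no member either, with 0, 4 and 3 and with 0, 3 and 2 members under an unadjusted 0.05. Of all 16396 genes, 583, 727 and 1101 were under it with DESeq2 and 728, 550 and 1005 with limma-voom.

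**Figure D1:**
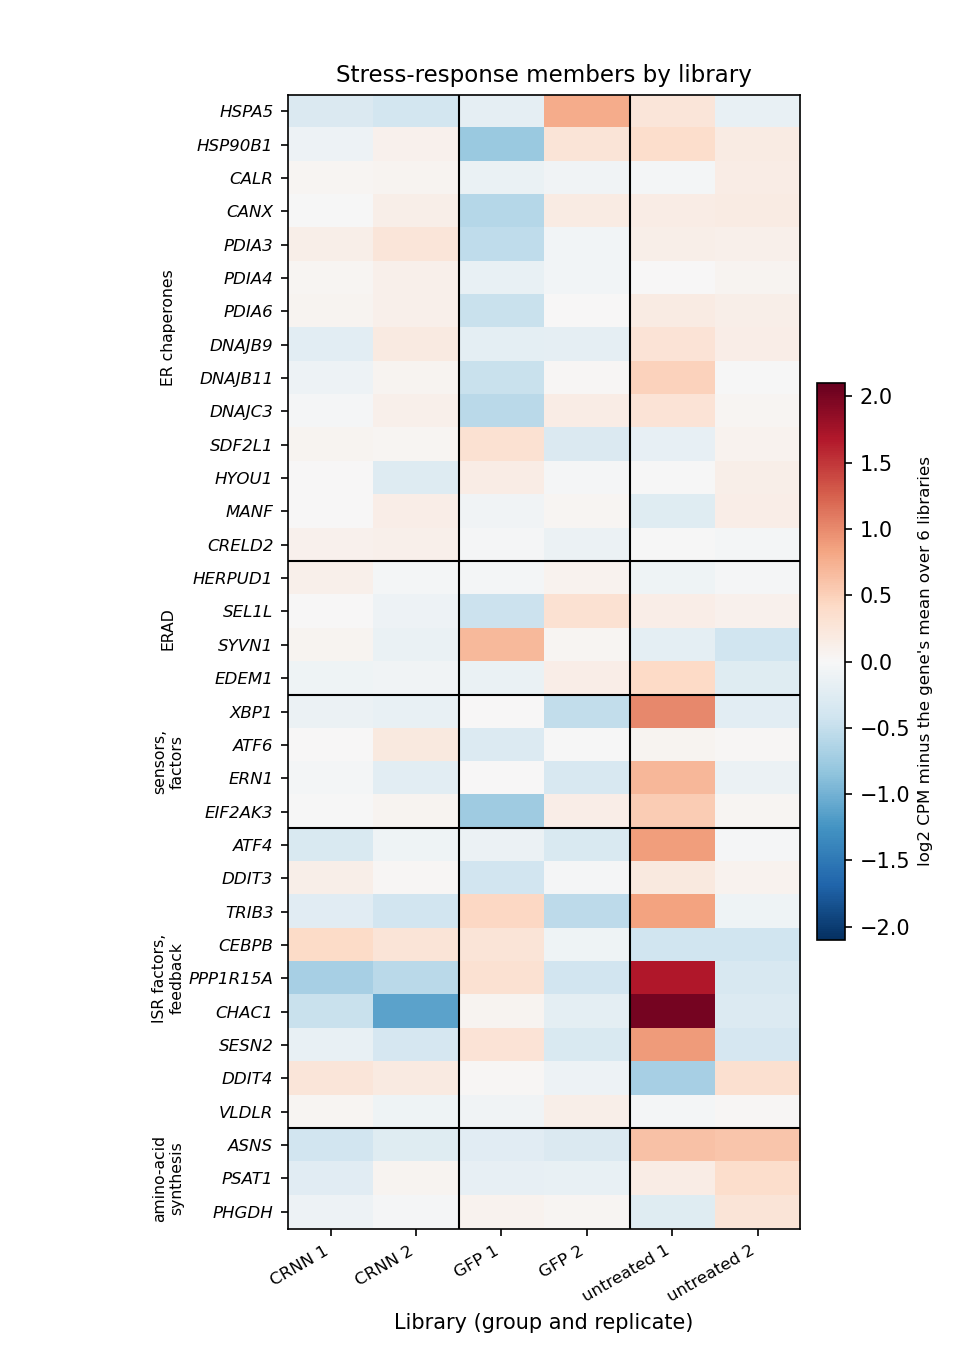
Each cell gives the log2 CPM of a gene (row, grouped by role) in a library (column), relative to that gene's mean over the 6 libraries. Untreated replicate 1 is high for CHAC1, PPP1R15A, XBP1 and ATF4, while the 14 ER chaperones average 0.12 in it, still their highest library. ASNS is high in both untreated libraries.

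The levels of the members spanned more than 2 orders of magnitude. Per kilobase of the canonical transcript and averaged over the 6 libraries, the highest was CALR with 333 CPM, followed by ATF4 with 195, CANX with 130 and HSP90B1 with 102 CPM per kb. The lowest were EIF2AK3 with 2.29, ERN1 with 0.935 and VLDLR with 0.61 CPM per kb. The chaperones thus stood mostly in the upper part of the order and the membrane sensors in the lower part. In bulk RNA, fewer cells expressing a gene and less RNA per cell cannot be told apart.

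The ER chaperones, which fold and hold new secretory and membrane proteins, differed little between CRNN and GFP cells apart from HSPA5, with fitted log2 differences from -0.19 to 0.46 for the other 13. HSPA5 (BiP), the main ER chaperone of the HSP70 family and the one that keeps the sensors inactive, had 164 and 154 CPM in CRNN cells, 176 and 347 CPM in GFP cells and 239 and 180 CPM in untreated cells. Both CRNN libraries lay below all 4 others, but the distance to the nearest GFP library was small and GFP replicate 2 stood apart from all the rest. The fitted log2 difference between CRNN and GFP cells was -0.72 ± 0.36 (SE), with a 95% interval from -1.52 to 0.09 and an adjusted p of 0.999 in edgeR's test. It was -0.12 without GFP replicate 2 and -1.12 without GFP replicate 1, so the size of the difference was set by 1 library.

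CALR (calreticulin), a lectin chaperone that binds newly glycosylated proteins, had 646 and 657 CPM in CRNN cells, 574 and 601 CPM in GFP cells and 615 and 702 CPM in untreated cells. The CRNN libraries lay above the GFP libraries and within the range of the untreated ones. PDIA3 (ERp57), the disulfide isomerase that works with calreticulin and calnexin, had 189 and 207 CPM in CRNN cells, 121 and 167 CPM in GFP cells and 189 and 187 CPM in untreated cells. Here GFP cells were the low group, and CRNN and untreated cells overlapped. The fitted log2 difference for PDIA3 was 0.46 ± 0.27 (SE) between CRNN and GFP cells, with an adjusted p of 0.999 in edgeR's test. It was 0.25 without GFP replicate 1 and 0.74 without GFP replicate 2.

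DNAJB11 (ERdj3), a co-chaperone of HSPA5, had 58.7 and 65.7 CPM in CRNN cells, 45.8 and 64.4 CPM in GFP cells and 88.6 and 62.5 CPM in untreated cells. All 3 groups overlapped, with untreated replicate 1 the highest library. The lectin chaperone CANX (calnexin) had 624 and 682 CPM in CRNN cells, 414 and 705 CPM in GFP cells and 695 and 705 CPM in untreated cells. HSP90B1 (GRP94), the HSP90 of the ER, had 255 and 291 CPM in CRNN cells, 159 and 331 CPM in GFP cells and 353 and 309 CPM in untreated cells. For both genes it was GFP replicate 1 that was lowest of the 6 libraries, with its sister library among the high ones.

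Among the other chaperone genes, the disulfide isomerases PDIA4 and PDIA6, the co-chaperones DNAJB9 and DNAJC3, SDF2L1, the exchange factor HYOU1 (GRP170) and the secreted ER proteins MANF and CRELD2 kept their fitted log2 differences between -0.42 and 0.30 in all 3 comparisons. HYOU1, for example, had 54.9 and 45.2 CPM in CRNN cells, 60.9 and 53.6 CPM in GFP cells and 54.2 and 58.9 CPM in untreated cells. CRELD2 had 24.8 and 25 CPM in CRNN cells, 22.9 and 21.5 CPM in GFP cells and 23.1 and 22.7 CPM in untreated cells. ALG12, opposite CRELD2, holds 43.7% as many reads as it does, and TBCCD1, opposite DNAJB11, holds 19.5%, so both levels are less certain where counting ignored strand. The 6 chaperone genes with an ERSE match had a median log2 difference of 0.16 between CRNN and GFP cells, and the 7 without one had 0.18. Against untreated cells, CRNN cells gave -0.08 with and -0.12 without the match, and GFP cells gave -0.24 and -0.14. The 7 without it include SDF2L1 and HYOU1, which carried ERSE-II, and PDIA3 was left out because it had no promoter entry.

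The ERAD genes remove proteins that fail to fold by moving them to the proteasome. HERPUD1, a scaffold of the ERAD membrane complex, had 25.5 and 23.1 CPM in CRNN cells, 23 and 24.9 CPM in GFP cells and 22.3 and 23.3 CPM in untreated cells. It overlapped in all 3 groups, and its promoter carried an ERSE-II and a CARE match. SEL1L, the adaptor of the HRD1 ubiquitin ligase, had 56.6 and 52.2 CPM in CRNN cells, 41 and 70.6 CPM in GFP cells and 61.9 and 60.2 CPM in untreated cells. Its GFP libraries lay at either end, and both CRNN libraries lay below both untreated ones.

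SYVN1, the HRD1 ligase itself, had 27 and 23.4 CPM in CRNN cells, 41.5 and 26.7 CPM in GFP cells and 22.4 and 19.3 CPM in untreated cells. Both transduced groups lay above the untreated libraries, GFP replicate 1 farthest. The log2 difference between GFP and untreated cells was 0.71 ± 0.30 (SE), with an unadjusted p of 0.0397 and an adjusted p of 0.711 in edgeR's test. It was 0.35 without GFP replicate 1. SYVN1 overlaps FAU on the same strand and MRPL49 on the opposite one, and these hold many more reads than it does, so its level is uncertain. EDEM1, a lectin that selects glycoproteins for degradation, had 51.4 and 51.9 CPM in CRNN cells, 49.3 and 60.2 CPM in GFP cells and 72.7 and 45.6 CPM in untreated cells, with all groups overlapping.

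Of the sensors and their factors, XBP1 had 68.3 and 66.7 CPM in CRNN cells, 74.5 and 52.3 CPM in GFP cells and 149 and 64.2 CPM in untreated cells. Untreated replicate 1 stood at 2-fold the next library, and the other 5 overlapped. The fitted log2 difference of XBP1 was -0.66 ± 0.39 (SE) between CRNN and untreated cells and -0.75 ± 0.40 (SE) between GFP and untreated cells, and without untreated replicate 1 these became 0.08 and -0.04. ATF6 had 38.7 and 44.8 CPM in CRNN cells, 31.7 and 38.6 CPM in GFP cells and 40.4 and 39.3 CPM in untreated cells.

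ATF6 was slightly higher in the CRNN libraries than in the GFP libraries, with neighbouring values that all but touched. ERN1 had 6.94 and 6.15 CPM in CRNN cells, 7.22 and 5.67 CPM in GFP cells and 11.7 and 6.61 CPM in untreated cells. EIF2AK3 had 9.93 and 10.4 CPM in CRNN cells, 5.92 and 11 CPM in GFP cells and 14.6 and 10.3 CPM in untreated cells. Both kinases overlapped in all 3 comparisons and were highest in untreated replicate 1.

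The factors and feedback genes of the integrated stress response held the largest differences among the members, and most of them rested on untreated replicate 1. ATF4, the transcription factor at the centre of this response, had 212 and 248 CPM in CRNN cells, 243 and 212 CPM in GFP cells and 486 and 262 CPM in untreated cells. All 4 transduced libraries lay below both untreated ones, while CRNN and GFP cells overlapped. The log2 difference was -0.70 ± 0.34 (SE) for CRNN against untreated cells, with an adjusted p of 0.989, and -0.72 ± 0.34 (SE) for GFP against untreated cells, with an adjusted p of 0.712, in edgeR's test. Without untreated replicate 1 they were -0.18 and -0.22.

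PPP1R15A (GADD34), the phosphatase subunit that reverses eIF2 phosphorylation, had 22.2 and 24.3 CPM in CRNN cells, 44.9 and 27.2 CPM in GFP cells and 115 and 28.3 CPM in untreated cells. The CRNN libraries were the lowest 2 of the 6, and untreated replicate 1 alone was far above the rest. The log2 difference between CRNN and untreated cells was -1.62 ± 0.56 (SE), with an unadjusted p of 0.0187 and an adjusted p of 0.989 in edgeR's test. It was -0.28 without untreated replicate 1 and -2.30 without untreated replicate 2.

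CHAC1, a glutathione-degrading enzyme downstream of ATF4 and one of the 3 members with a CARE match, had 3.9 and 2.45 CPM in CRNN cells, 5.66 and 4.71 CPM in GFP cells and 22.3 and 4.44 CPM in untreated cells. The CRNN libraries again lay below the other 4, and untreated replicate 2 lay just under the GFP libraries. The log2 difference between CRNN and untreated cells was -2.07 ± 0.65 (SE), with an unadjusted p of 0.0113 and an adjusted p of 0.989 in edgeR's test. It was -0.48 without untreated replicate 1 and -2.81 without untreated replicate 2. Between CRNN and GFP cells, CHAC1 differed by -0.71 ± 0.65 (SE) and PPP1R15A by -0.64 ± 0.56 (SE), each with an adjusted p of 0.999 in edgeR's test. PPP1R15A was at -0.22 without GFP replicate 1, and CHAC1 at -0.41 without CRNN replicate 2.

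CEBPB, a transcription factor that pairs with ATF4, differed in the other direction. It had 59.2 and 54 CPM in CRNN cells, 54.5 and 42.1 CPM in GFP cells and 33.5 and 33.6 CPM in untreated cells. The untreated libraries were nearly equal and below all 4 transduced ones. The log2 difference from untreated cells was 0.75 ± 0.26 (SE) in CRNN cells, with an unadjusted p of 0.0179 and an adjusted p of 0.989, and 0.52 ± 0.26 (SE) in GFP cells, with an adjusted p of 0.713, in edgeR's test. The range without any 1 library was 0.70 to 0.80 for CRNN cells and 0.32 to 0.68 for GFP cells.

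TRIB3, a pseudokinase that restrains ATF4, had 49.1 and 43.8 CPM in CRNN cells, 78.7 and 39.8 CPM in GFP cells and 105 and 54.3 CPM in untreated cells. SESN2 (sestrin 2), which signals amino-acid shortage to mTORC1, had 15.6 and 13.6 CPM in CRNN cells, 21.2 and 13.9 CPM in GFP cells and 32.2 and 13.5 CPM in untreated cells. Both were highest in untreated replicate 1 and second highest in GFP replicate 1. Against untreated cells, the log2 differences of CRNN cells were -0.78 ± 0.41 (SE) for TRIB3 and -0.64 ± 0.41 (SE) for SESN2, and without untreated replicate 1 they were -0.22 and 0.11.

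The remaining members of this role did not share the pattern. DDIT4 (REDD1), an inhibitor of mTORC1, had 65.1 and 62.2 CPM in CRNN cells, 55.5 and 51.2 CPM in GFP cells and 33.9 and 69.5 CPM in untreated cells, so untreated replicate 1 was its lowest library. DDIT3 (CHOP), the factor tied to cell death after lasting stress, ranged from 7.22 to 11 CPM over the 6 libraries, and VLDLR, a lipoprotein receptor, from 5.26 to 6.15 CPM. DDIT3 lies opposite MARS1, which holds many more reads, and the strand setting of the counting is not given in the sources used here, so its level is uncertain.

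**Figure D2:**
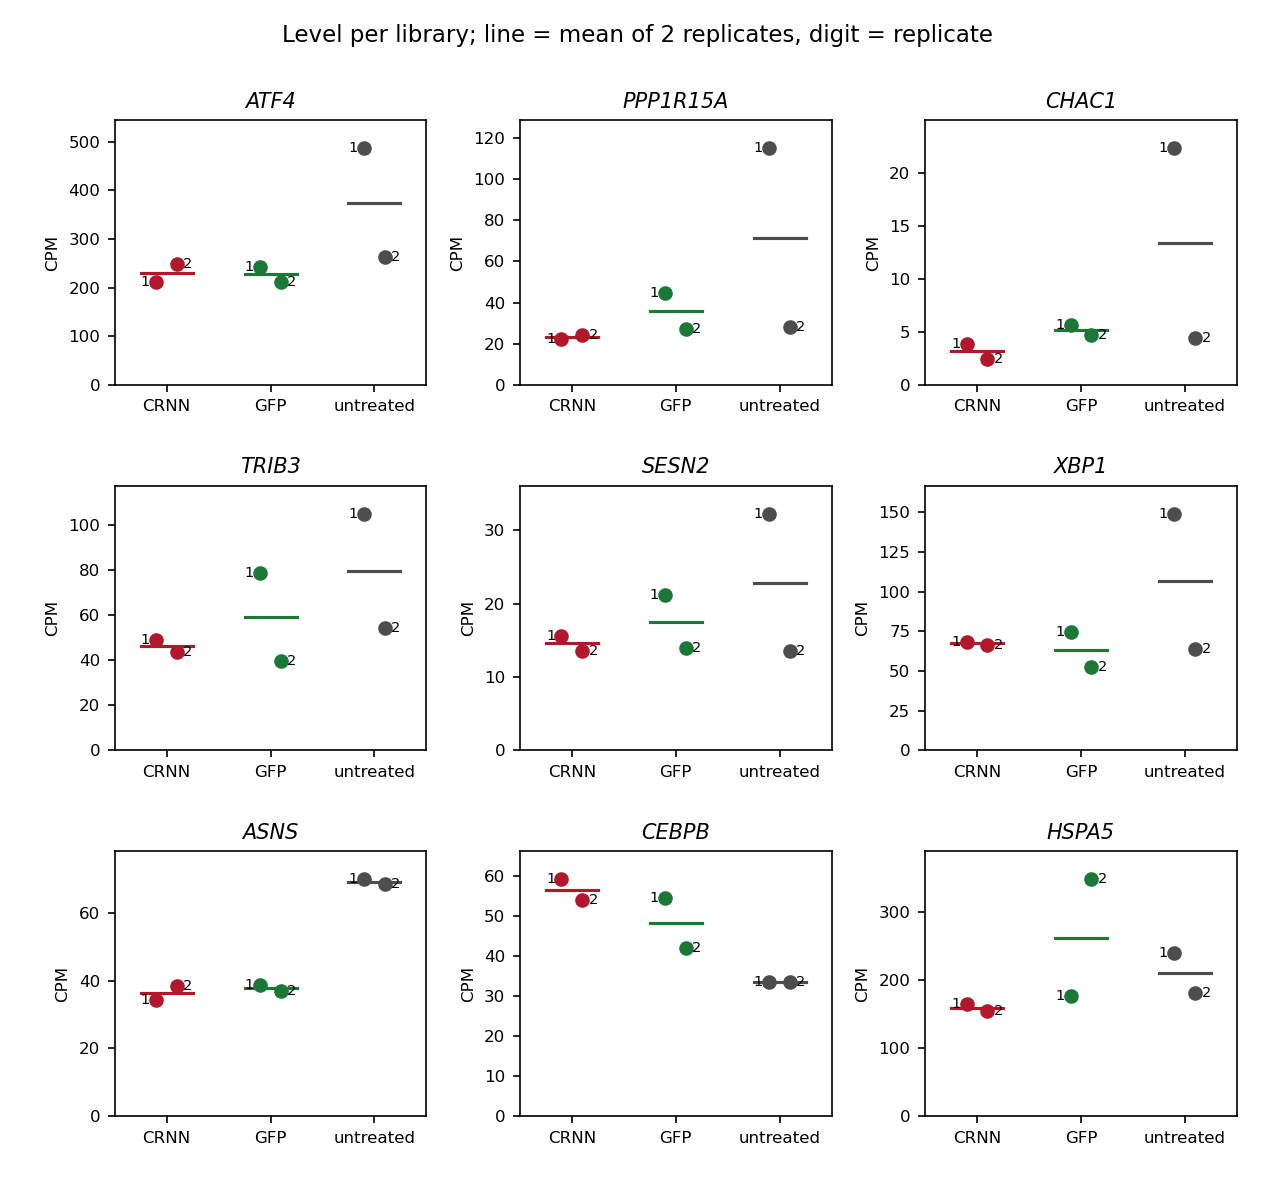
CPM of 9 members in each library (points, numbered by replicate) with the mean of the 2 libraries of each group (line). In ATF4, PPP1R15A, CHAC1, TRIB3, SESN2 and XBP1 the untreated mean is pulled up by replicate 1, while the 2 untreated libraries coincide for ASNS and CEBPB, and HSPA5 is spread by GFP replicate 2.

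Among the enzymes of amino-acid synthesis, ASNS (asparagine synthetase), an ATF4 target whose promoter carried a CARE match, had 34.3 and 38.4 CPM in CRNN cells, 38.6 and 37 CPM in GFP cells and 69.9 and 68.7 CPM in untreated cells. The replicates of each group were close, CRNN and GFP cells overlapped, and all 4 transduced libraries lay below both untreated ones. The log2 difference from untreated cells was -0.93 ± 0.25 (SE) in CRNN cells, with an unadjusted p of 0.00449 and an adjusted p of 0.989, and -0.87 ± 0.25 (SE) in GFP cells, with an unadjusted p of 0.00634 and an adjusted p of 0.711, in edgeR's test. With any 1 library left out the 2 differences stayed between -1.03 and -0.83 and between -0.91 and -0.87.

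PSAT1 and PHGDH act in serine synthesis. PSAT1 had 127 and 155 CPM in CRNN cells, 133 and 134 CPM in GFP cells and 166 and 192 CPM in untreated cells, again with all 4 transduced libraries below both untreated ones. PHGDH had 109 and 115 CPM in CRNN cells, 124 and 120 CPM in GFP cells and 98.2 and 141 CPM in untreated cells, whose libraries spanned all the others. The log2 difference of PSAT1 between GFP and untreated cells was -0.42 ± 0.26 (SE), with an adjusted p of 0.727 in edgeR's test, and -0.16 after correction for GC content and length.

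Since ATF4, ASNS, PSAT1 and CEBPB separated both transduced groups from untreated cells, the mean of CRNN and GFP cells was also set against untreated cells, a contrast chosen after the values were seen. It called no member and 0.0061% of all genes in edgeR's test, and 5 members had an unadjusted p under 0.05, against 6.31% of all genes. ASNS had a log2 difference of -0.90 ± 0.21 (SE), with an unadjusted p of 0.00183 and an adjusted p of 0.769, and the difference was again -0.90 without untreated replicate 1. CEBPB had 0.64 and ATF4 had -0.71 in the same contrast, which for ATF4 was -0.20 without untreated replicate 1. Leaving out untreated replicate 2 made untreated replicate 1 the only untreated library. The log2 differences were then -2.46 for CHAC1, -1.99 for PPP1R15A, -1.19 for XBP1 and -1.09 for ATF4. CHAC1, PPP1R15A and XBP1 were at -0.14, 0.03 and 0.02 without untreated replicate 1. All 4 transduced libraries lay below both untreated ones for 4 members, which were PDIA6, ATF4, ASNS and PSAT1, against 5.21% of all genes. They lay above both for SYVN1 and CEBPB, 2 of the 34 members, against 6.01% of all genes. Virus and polybrene were applied together, and polybrene and culture time are not given for the untreated cells. The parts of virus, polybrene and culture time cannot be told apart here.

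**Figure D3:**
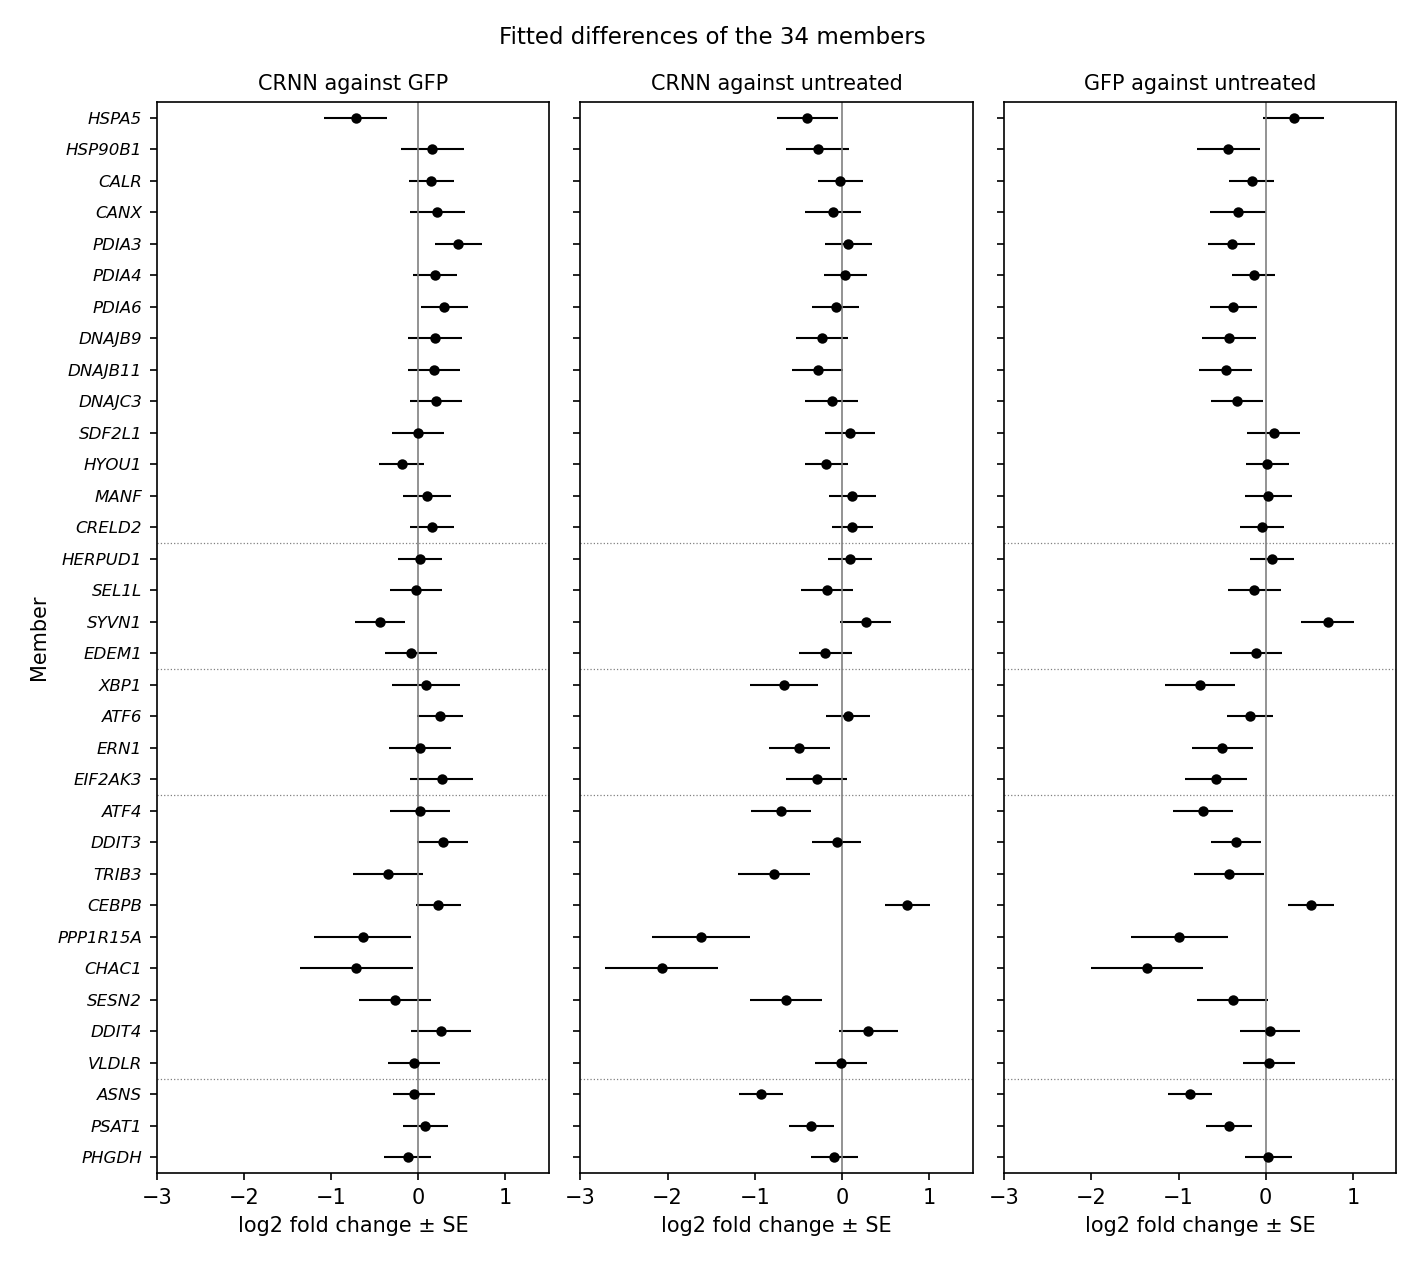
Fitted log2 fold change of each member (point) with its standard error (bar) in the 3 comparisons, with dotted lines between the roles. CRNN against GFP gathers near 0 apart from HSPA5, PPP1R15A and CHAC1, and ASNS keeps a short bar left of 0 in both comparisons with untreated cells.

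Set beside each other, the 18 chaperone and ERAD genes and the 12 ATF4 and amino-acid genes both had medians near 0 for CRNN against GFP. The median log2 difference between CRNN and GFP cells was 0.15 for chaperones and ERAD, with 13 of 18 above 0, and -0.05 for the ATF4 genes, with 5 of 12 above 0, beside -0.002 for all genes tested. The chaperone median was -0.03 without GFP replicate 1 and 0.03 after correction for GC content and length, and the ATF4 median was 0.08 and -0.15. GFP replicate 1 was the lowest of the 6 libraries for 9 of the 18 chaperone and ERAD genes, against 25.3% of all genes. Its deviations from the mean of the other libraries followed GC content, with a rank correlation of 0.642 across well-counted genes. The same correlation was -0.391 in GFP replicate 2. The mitochondrial mRNAs, 13 of 13 measured, summed to 10500 and 6190 CPM in CRNN cells and 15100 and 11900 CPM in GFP cells. In untreated cells they summed to 10100 and 12300 CPM. All genes whose names start with MT- held from 22.5% of the counts (untreated replicate 1) to 29.3% (GFP replicate 1). The part of mitochondrial RNA in these differences was not tested.

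Against untreated cells the 2 groups of genes lay farther apart. The median of CRNN against untreated cells was -0.08 for chaperones and ERAD, with 11 of 18 below 0, and -0.50 for the ATF4 genes, with 10 of 12 below 0, beside -0.009 for all genes. The median of GFP against untreated cells was -0.14 for chaperones and ERAD, with 12 of 18 below 0, and -0.40 for the ATF4 genes, with 8 of 12 below 0, beside -0.013 for all genes. Both comparisons use the same untreated libraries. Without untreated replicate 1 the ATF4 medians were -0.20 and -0.12, and the chaperone medians were -0.03 and -0.18.

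**Figure D4:**
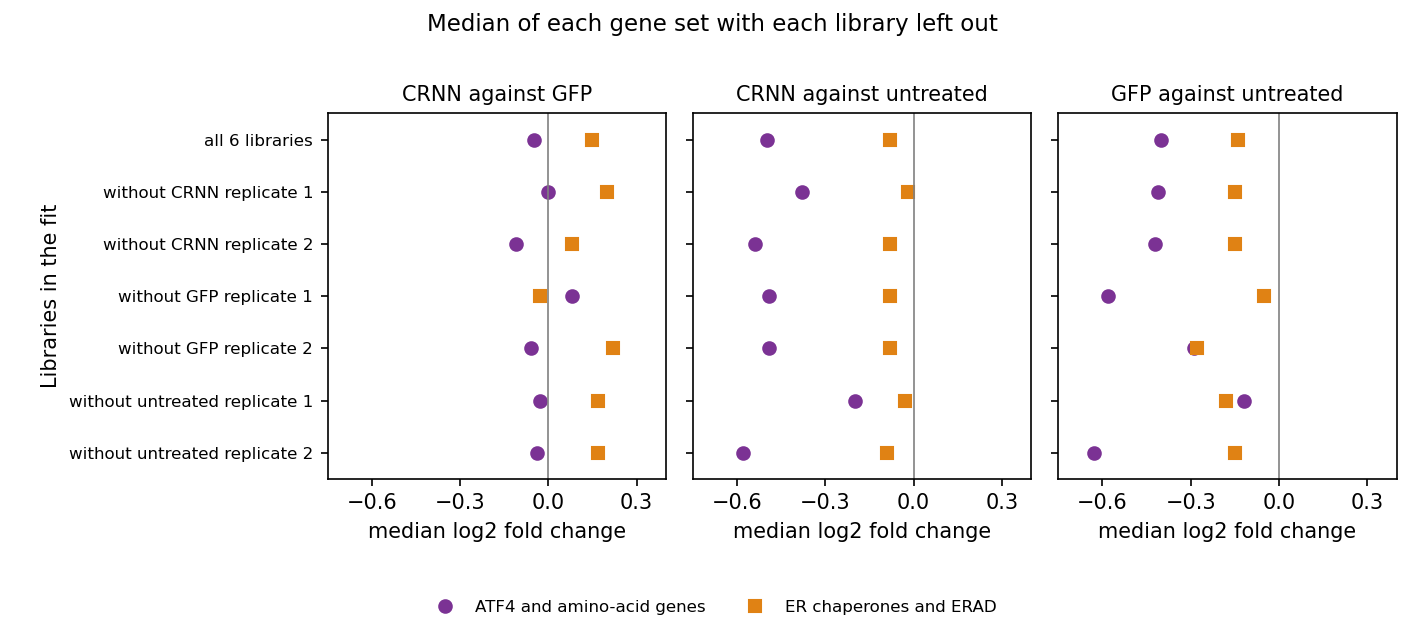
Median log2 fold change of the 12 ATF4 and amino-acid genes (circles) and of the 18 chaperone and ERAD genes (squares) with all libraries and with each left out. The circles lie farthest left against untreated cells and move to -0.20 and -0.12 when untreated replicate 1 is left out.

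Untreated replicate 1 exceeded 1.5 times the highest other library for 6 of the 34 members, against 7.23% of all genes. They were CHAC1 at 3.93 times, PPP1R15A at 2.56, XBP1 at 2.0, ATF4 at 1.86, ERN1 at 1.62 and SESN2 at 1.52 times that library. None of the 18 chaperone and ERAD genes was among them, 4 of the 12 ATF4 and amino-acid genes were, and so were 2 of the 4 sensors and factors. The same library also had 53 CPM over the 4 endothelial markers in the table, of which CDH5 made 49.9, against 8.16 and 10.4 CPM in CRNN cells, 8.15 and 14 CPM in GFP cells and 13.1 CPM in untreated replicate 2, while KDR and TEK stayed at or near 0 everywhere. Its keratin KRT17 was at 1770 CPM, against 67.6 to 182 CPM in the 4 transduced libraries and 113 CPM in untreated replicate 2. The other keratins among the epithelial markers were lower in it than in untreated replicate 2. KRT14 had 64.6 against 275 CPM, KRT5 2370 against 4270 CPM and KRT6A 356 against 586 CPM. Among the epithelial markers that are not keratins, SFN had 1020 against 305 CPM, CDH1 281 against 116 CPM and EPCAM 142 against 136 CPM. TP63 was lower in it, with 195 against 294 CPM. The part of such features of the library in its stress-gene levels was not tested.

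Libraries of the same group differed most in GFP cells, at the median over the members. The largest gap in log2 CPM was 1.06 in GFP cells, for HSP90B1, and 2.3 in untreated cells, for CHAC1. The median gap between replicates, in log2 CPM, was 0.13 for the members in CRNN cells, 0.36 in GFP cells and 0.21 in untreated cells, beside 0.15, 0.43 and 0.36 for all well-counted genes. The 95% interval of the fitted difference lay within a 2-fold change in either direction for 25 of the 34 members between CRNN and GFP cells, for 21 between CRNN and untreated cells and for 15 between GFP and untreated cells. For CRNN against GFP the members whose interval reached beyond it were HSPA5, PDIA3, SYVN1, EIF2AK3, TRIB3, PPP1R15A, CHAC1, SESN2 and DDIT4. The libraries of CRNN and GFP cells did not overlap for 8 members with CRNN cells higher and for 4 with CRNN cells lower, against 19.4% and 18.7% of all genes. Between CRNN and untreated cells this held for 3 members higher and 11 lower, against 18.7% and 18.4% of all genes. Between GFP and untreated cells it held for 2 members higher and 10 lower, against 16.2% and 15.5% of all genes.

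Other genes of the same pathways were read from lists of related genes, and none was called in any comparison in edgeR's test with all 6 libraries. With each library left out, the log2 differences between CRNN and untreated cells ran from -2.41 to -0.30 for STC2 and from -1.51 to -0.34 for CEBPG. Between GFP and untreated cells they ran from -1.53 to -0.41 for WARS1, from -1.51 to -0.35 for CEBPG and from -1.44 to -0.23 for MTHFD2. In untreated replicates 1 and 2, WARS1 had 230 and 105 CPM and MTHFD2 had 201 and 86.5 CPM. Of 35 further genes of ER folding and translocation, 26 were above 0 for CRNN against GFP, with a median log2 difference of 0.14, and 31 were below 0 for GFP against untreated. For CRNN against GFP this became 21 above 0 without GFP replicate 1, and the median became 0.05 after correction for GC content and length. SEC61G, a subunit of the translocation channel, had 94.7 and 107 CPM in CRNN cells, 58.5 and 55.2 CPM in GFP cells and 72.8 and 70.1 CPM in untreated cells. Its CRNN libraries were above all others, and the log2 difference from GFP cells was 0.83 ± 0.25 (SE), with an adjusted p of 0.999 in edgeR's test, and 0.44 after that correction. Of 16 further ERAD genes, 12 were above 0 for CRNN against GFP, with a median of 0.14, and 13 were below 0 for GFP against untreated. For CRNN against GFP, 9 of 16 were above 0 both without GFP replicate 1, with a median of 0.06, and after the correction, with a median of 0.04.

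Of 26 further ATF4 targets in amino-acid uptake, synthesis and tRNA charging, 23 were below 0 for CRNN against untreated, with a median log2 difference of -0.38, and 18 for GFP against untreated, with a median of -0.31. Without untreated replicate 1 the same counts were 23 and 20, and the medians were -0.21 and -0.18. SLC7A11, the cystine importer, had 8.98 and 7.8 CPM in CRNN cells, 16 and 20.5 CPM in GFP cells and 19.4 and 14.5 CPM in untreated cells. CRNN cells were below all 4 other libraries, by -1.12 ± 0.29 (SE) on the log2 scale against GFP cells and by -1.01 ± 0.29 (SE) against untreated cells, with adjusted p of 0.999 and 0.989 in edgeR's test. Leaving out each library in turn kept the first between -1.28 and -0.91 and the second between -1.21 and -0.79.

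Of 10 further stress targets of ATF4, 8 were below 0 for CRNN against untreated and 7 for GFP against untreated. STC2 (stanniocalcin 2), a secreted protein induced by ER stress, had 14.1 and 13.6 CPM in CRNN cells, 20.8 and 18.5 CPM in GFP cells and 73.5 and 17 CPM in untreated cells. CEBPG, a partner of ATF4, had 27.2 and 27.6 CPM in CRNN cells, 23.2 and 32.1 CPM in GFP cells and 78.2 and 34.7 CPM in untreated cells. Both followed CHAC1 in that untreated replicate 1 was far above the other 5 libraries.

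Among 16 eIF2 kinases, subunits and exchange factors, 13 were above 0 for CRNN against GFP, with a median log2 difference of 0.14, and 12 were below 0 for GFP against untreated. Without GFP replicate 1, 8 of 16 were above 0 for CRNN against GFP, with a median of 0. Among 9 tested genes that process or accompany the sensors, 7 were below 0 for CRNN against GFP, with a median of -0.39, which was -0.18 without GFP replicate 1. Of these, CREB3L2, a membrane-bound transcription factor related to ATF6, had 11.6 and 10.2 CPM in CRNN cells, 21.4 and 21.9 CPM in GFP cells and 11.3 and 12.5 CPM in untreated cells. GFP cells were the group that stood apart, by -0.99 ± 0.26 (SE) for CRNN against GFP on the log2 scale and by 0.86 ± 0.26 (SE) for GFP against untreated, with adjusted p of 0.999 and 0.711 in edgeR's test. ATF6B, the close relative of ATF6, had 23.8 and 25.9 CPM in CRNN cells, 35.9 and 40.9 CPM in GFP cells and 28.1 and 30.6 CPM in untreated cells.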

How the data were processed

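The authors deposited raw read counts per gene for 57820 versioned Ensembl identifiers in 6 libraries. Per the labels' protocols, the libraries were stranded total RNA, and all carry batch 1. Per the submitters' processing notes, the tools included STAR 2.6, HTSeq 0.6.1, FastQC 0.11.7, edgeR and bcl2fastq. What each did, and the annotation, build and strandedness used in counting, are not given in the sources used here. Of the identifiers, 51996 were named by the identifier without its version, and coordinates in GRCh38 were taken from GENCODE.

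Genes were kept by filterByExpr (minimum count 10, minimum total 15), which left 16396 genes with 99.9% of counts. A single edgeR 4.0.16 model (R 4.3.3, TMM factors, quasi-likelihood F test without covariates) held the 3 groups, because a group of 2 has 1 residual degree of freedom and the spread is then shared, and p-values were adjusted by Benjamini-Hochberg over all tested genes (threshold 0.05). DESeq2 1.42.0, limma 3.58.1, other scalings and filters, a spline correction for GC content and length, and leaving out each library were alternatives. The scripts were tested on simulated data. Errors are standard errors of the fit.

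The members and lists were chosen with earlier results of these data known. All members could be named, with up to 3 genes per further list and comparison by smallest unadjusted p. The 6 values are printed for the 3 members with the smallest p and the most abundant one of each role. The values of CANX, HSP90B1, HYOU1, CRELD2, TRIB3, SESN2 and DDIT4 were added after they were seen. No replicate pair held identical values. Replicates with the same number did not deviate together in all group pairs, so they were not treated as paired.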

Additional observations from a re-analysis of the deposited data

How the results depend on the processing

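The limits are those of 2 libraries per group, in which 1 library can set a group mean. Counts were low for CHAC1, DNAJB9, ERN1 and VLDLR, and intervals cover the fitted spread only. No member was called under any scaling, DESeq2, limma-voom, the GC and length correction, a stricter filter or a fit of the compared groups alone. With no filter, 2 of the 34 members were called for CRNN against untreated, PPP1R15A and CHAC1, beside 152 of all 33425 genes tested. The cause was not tested. Without untreated replicate 2, the differences of PPP1R15A and CHAC1 from untreated cells rested on untreated replicate 1 alone. An arm left with 1 library is assumed to vary like the others. The chaperone and ERAD median for CRNN against untreated was -0.01 with upper-quartile scaling and ran from -0.09 to -0.02 with each library left out. With each library left out, XBP1 ran from -1.14 to 0.08 and SESN2 from -1.13 to 0.11 in CRNN against untreated, PPP1R15A from -1.68 to 0.33 and CHAC1 from -2.11 to 0.21 in GFP against untreated, and PPP1R15A from -1.99 to 0.03 in transduced against untreated; each turned its sign without untreated replicate 1. Of 16396 genes tested, those called were 3 (CRNN against GFP), 1 (CRNN against untreated cells) and 0 (GFP against untreated cells). In this order they were 22, 7 and 29 with DESeq2, and 34, 152 and 195 of 33425 genes with no filter. For CRNN against GFP they were 13 with only the 2 groups compared or without untreated replicate 1, 1 with the GC and length correction, and 0 without either GFP library. Same-numbered replicates correlated at 0.255, -0.0707 and 0.193 in their deviations over the 3 pairs of groups. With the replicate block, 0 members were called in each comparison, and ASNS was at -0.93 and CHAC1 at -1.82 for CRNN against untreated.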
